A study of Rattus norvegicus with 15 samples.

Results

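GABA-A receptor subunits were examined in rat neurons of 2 midbrain regions. One was the pars compacta of the substantia nigra (SNc) and the other was the ventral tegmental area (VTA). The 7 subunit genes were Gabra2, Gabra3, Gabra4, Gabra5, Gabrb1, Gabrb2 and Gabrg1. They were chosen from the GABA-A subunit family among the 4736 gene symbols that the platform annotation gives for the array. Another 8 GABA-A subunits on the array were not among the 7 and are compared further on as a separate list. The 7 genes were read by 11 probe sets, a probe set being a group of short probes whose signals are combined into 1 value. Gabra3, Gabra4, Gabra5 and Gabrb2 had 2 probe sets each. The neurons were taken by laser capture and their total RNA was profiled on Affymetrix rat arrays. SNc gave 8 of them, with numbers 1 to 8 in the labels, while VTA gave 7, with number 7 missing from the labels used here. The sources used here do not give strain, age, sex, any treatment or the way neurons were recognised, and no label ties an array to an animal. The spread behind each p-value is that between arrays, and it may be partly technical.

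The GABA-A receptor is a chloride channel of 5 subunits that opens when GABA binds, and it carries most fast inhibition in the brain. A common receptor joins alpha and beta subunits with a gamma or delta subunit. GABA binds between beta and alpha, and benzodiazepines bind between alpha and gamma. Midbrain dopamine neurons receive dense GABA input through these receptors, from the striatum, the globus pallidus and local GABA neurons.

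Captures of both regions carried the markers of dopamine neurons. The summed signal of 13 such markers lay between 29995 and 37060 in SNc, against 24682 to 35809 in VTA, and 0 of the 13 lay at 0 or under the level below which probe sets were not tested. Th, which makes the precursor of dopamine, averaged 6615 ± 527 in SNc and 7193 ± 770 in VTA, and Slc6a3, the dopamine transporter, 7245 ± 603 in SNc and 5782 ± 979 in VTA. Markers of other cells were present too. The 7 GABA neuron markers summed to 956 to 1917 in SNc and 614 to 1153 in VTA, the 8 astrocyte markers to 4269 to 6556 in SNc and 4400 to 6987 in VTA, and the 9 oligodendrocyte markers to 7046 to 11796 in SNc and 9471 to 14360 in VTA. Markers of microglia were dim, with 6 of 8 under that level. A sum mostly follows the brightest genes of its list. Of the astrocyte markers Aldoc averaged 2200 in SNc and 2054 in VTA, but Aqp4 31.8 and 63.5, and Gja1 3.54 and 4.31. Of the oligodendrocyte markers Mbp averaged 3784 in SNc and 4838 in VTA, but Sox10 12.2 and 19.4. Median signal ran from 37.9 to 45.2 in SNc and from 42.2 to 46.7 in VTA, with every array scaled to the same trimmed mean. By their median correlation with the rest, VTA 5 and VTA 8 stood lowest, at 0.939 and 0.946, and results without both were computed too. In captures of this kind, fewer cells of a type and less RNA per cell cannot be told apart.

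Most subunit probe sets gave little signal. As a gauge of signal without a target, 14 control probe sets against mouse and yeast genes or the reverse strand of rat genes had an array median between 4.34 and 19.2 and reached 115.5 at most. Each signal was set against the controls of its own array, whose highest ran from 70.2 on VTA 5 to 115.5 on SNc 8. Of the 11 subunit probe sets, 1, for Gabrb2, was above its array's highest control on every array. Gabrb1 was above it on 11 of 15 arrays, Gabra4 on 1, and each of the others on 0. For Gabra4 that array was VTA 5, at 84.1, and its highest signal on any array, 96.7, was under 115.5. The reverse-strand GAPDH controls averaged 70.1, 45.3 and 86.5, and the other controls 1.61 to 19.9, so that highest level rests on few controls. Gabra2 was above the control median on 15 arrays, Gabra4 by its brighter probe set on 14 and Gabrg1 on 13. Probe sets were tested if their mean log2(signal + 16) was among the upper 60% of the table, which corresponds to a signal of about 26.3. This left 5 subunit probe sets, 1 each for Gabra2, Gabra4, Gabrb1, Gabrb2 and Gabrg1, while Gabra3, Gabra5 and the dimmer probe sets of Gabra4 and Gabrb2 fell below it. In the plot of signals by array, the dim probe sets lie near the controls.

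**Figure D1:**
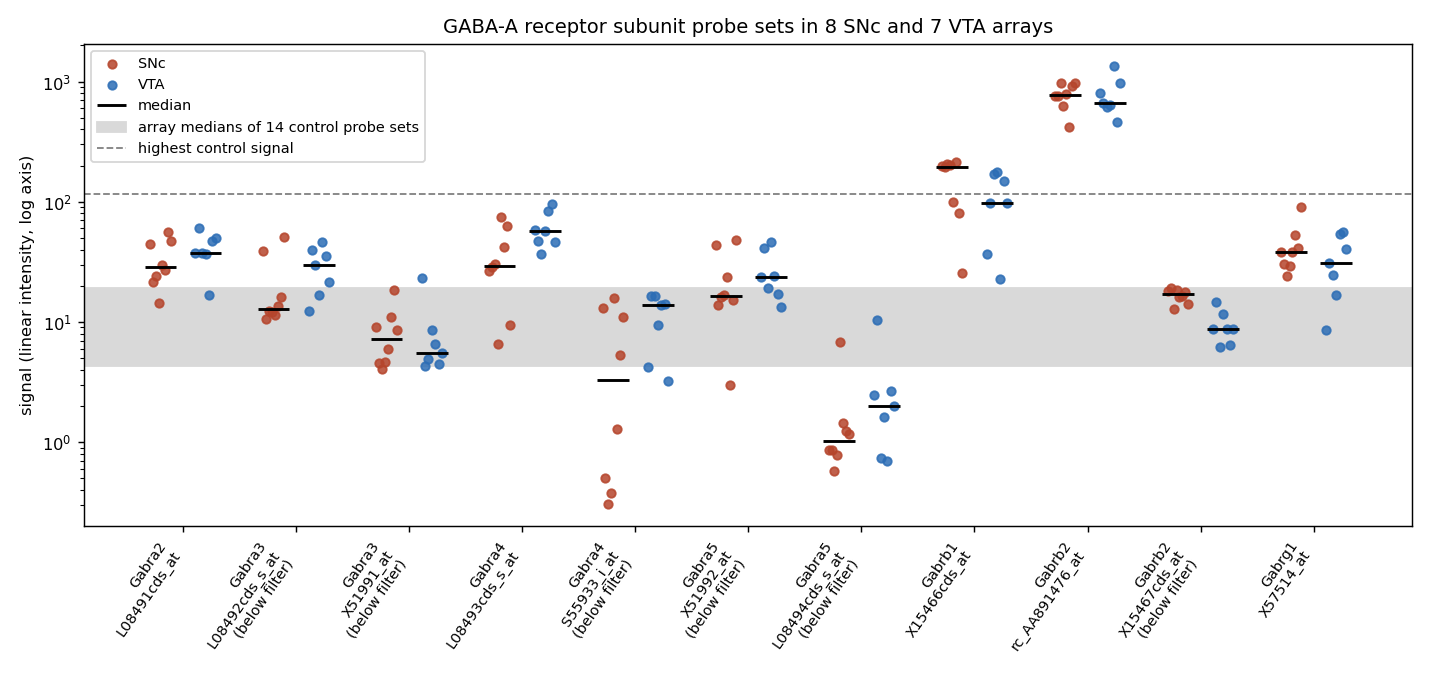
Signal of each GABA-A subunit probe set on every array, on a log axis, with SNc arrays left of VTA arrays and a bar at each region's median (8 SNc and 7 VTA arrays). The grey band spans the array medians of the control probe sets, from 4.34 to 19.2. The dashed line marks their highest value over all arrays, 115.5. Only the brighter Gabrb2 probe set lies above the line on every array.

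None of the 5 tested subunit probe sets differed between the regions at an adjusted p of 0.05 in limma, where 1.98% of all 5244 tested probe sets did. With a test at an unadjusted p of 0.05, 1 of 5 passed, Gabra4, where 15.4% of all passed. An exact permutation test of the means, adjusted over all tested, also called 0 of the 5, against 1.3% of all. SNc and VTA arrays overlapped for each of the 11 subunit probe sets, where 0.549% of all 8740 did not overlap. The median difference of the 5 was 0.02 on the log2(signal + 16) scale, SNc minus VTA, against -0.04 over all tested probe sets. Of the 5 differences 3 were above 0 and 2 below.

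**Figure D2:**
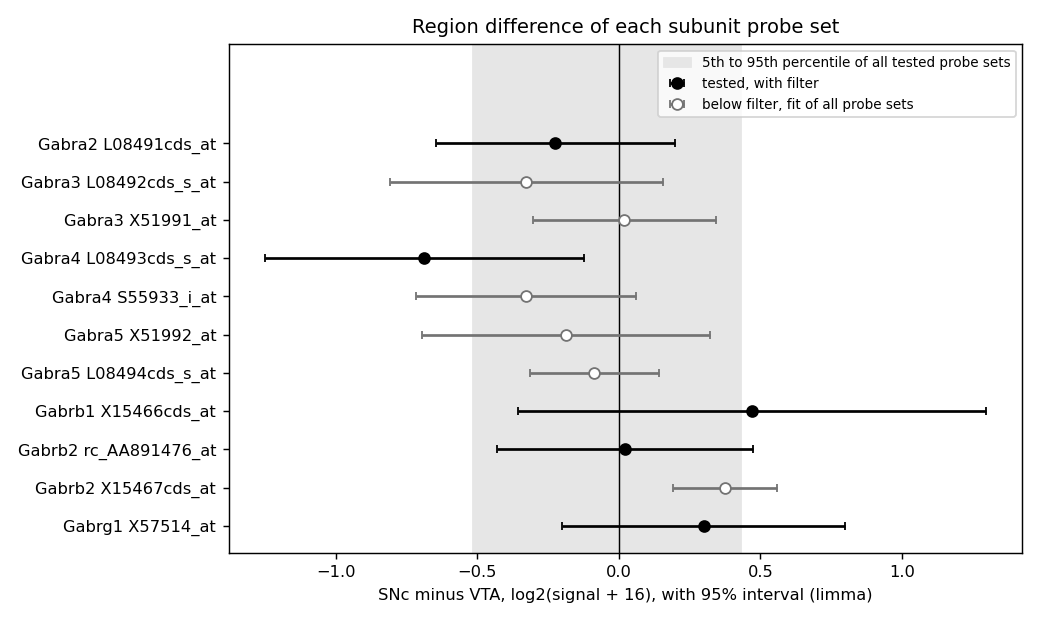
Difference of each subunit probe set between the regions, SNc minus VTA, on the log2(signal + 16) scale with limma's 95% interval (8 SNc and 7 VTA arrays). Filled points were tested, and open points fell below the filter and come from the fit of all 8740 probe sets. The grey band spans -0.51 to 0.43, the 5th to 95th percentile of all tested probe sets. Gabra4 L08493cds_s_at lies left of the band at -0.69, and Gabrb1 right of it at 0.47.

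The beta subunits contribute to the GABA site, and their loop inside the cell is phosphorylated and takes part in receptor trafficking. Their promoters are shown because Gabrb2 and Gabrb1 exceeded their array's highest control on the most arrays, 15 and 11 of 15. Their signals, with Gabrb2 read by its brighter probe set, also ran in opposite directions between captures, as given further on. Both sequences are the 250 bases before the start site in RefSeq's rat assembly GRCr8, read along the gene. That of Gabrb1 is chr14:36902894-36903143 on the minus strand, and that of Gabrb2 is chr10:27439543-27439792 on the plus strand. Capitals mark the core of the motif of nuclear respiratory factor 1, a transcription factor known for its control of genes of mitochondrial respiration.
Gabrb1: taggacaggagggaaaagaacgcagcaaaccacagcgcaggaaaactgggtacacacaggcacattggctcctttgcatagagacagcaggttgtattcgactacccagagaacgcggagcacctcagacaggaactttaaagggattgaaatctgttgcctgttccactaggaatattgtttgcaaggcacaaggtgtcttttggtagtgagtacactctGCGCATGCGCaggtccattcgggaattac
Gabrb2: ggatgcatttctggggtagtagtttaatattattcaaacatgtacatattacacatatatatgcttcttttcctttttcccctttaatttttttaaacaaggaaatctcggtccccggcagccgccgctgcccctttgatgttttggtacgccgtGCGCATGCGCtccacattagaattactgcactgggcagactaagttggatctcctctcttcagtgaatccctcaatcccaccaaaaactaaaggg
The letters searched were GCGCATGCG on either strand. In each promoter the matches on both strands overlap, so that 10 letters stand in capitals. The match begins 29 bases before the start site of Gabrb1 and 95 bases before that of Gabrb2. The table held promoters of 6 of the 7 genes, all but Gabra2, and 2 of the 6 had the core, as did 1.35% of all 33469 promoters of this length. The motif was chosen after the sequences had been read, and a match is a string of letters, not a shown binding site. The promoters of Gabra4 and Gabra5 were rich in G and C, at 71.6% and 76.4%, where those of Gabrb1 and Gabrb2 had 49.2% and 43.2% and the median of all was 51.2%.

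Gabrb2 encodes the beta2 subunit, which makes receptors sensitive to the anaesthetic etomidate. Its brighter probe set, rc_AA891476_at, ranged from 421 over a median of 776 to 978 in SNc, against 461 over 659 to 1350 in VTA. The ranges overlapped, and that of VTA reached higher through VTA 5, the highest array. Without VTA 5 and VTA 8 the log2 difference was 0.27 (limma adjusted p = 0.56). The mean signal was 778 ± 188 in SNc and 785 ± 297 in VTA (SD, n = 8 and 7). The log2 difference was 0.02 (SE 0.22, 95% interval -0.43 to 0.47, limma adjusted p = 0.976).

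The other Gabrb2 probe set, X15467cds_at, named for the coding sequence of its source entry, gave another picture at a signal near the controls. It ranged from 12.9 over a median of 17.1 to 19.2 in SNc, against 6.16 over 8.74 to 14.6 in VTA. All 8 SNc arrays were above the VTA mean and 6 of them above the highest VTA array. It was below the filter. In the fit of all 8740 probe sets the log2 difference was 0.37 (SE 0.09, 95% interval 0.19 to 0.56, limma adjusted p = 0.0475), the 1 call among the 11 subunit probe sets where 1.16% of all probe sets were called. That call was lost on leaving out any of 13 of the 15 arrays, with adjusted p up to 0.103, and with the exact permutation test (p = 0.000777, adjusted p = 0.0763). The size of the difference depended on the offset, at 0.82 with an offset of 1 and 0.14 with 64, while the brighter probe set stayed at 0.02 with either. The difference between the 2 probe sets was itself not tested. The dimmer probe set was above the control median on 8 of 15 arrays and above the highest control on 0. The 3' to 5' signal ratio of the actin controls ran from 6.14 to 15.4 in SNc and from 7.40 to 9.43 in VTA. Such a ratio can change with RNA integrity and with RNA amplification, which the sources used here do not give. Whether the ratio bears on the disagreement of the 2 probe sets was not tested.

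Gabrb1 encodes the beta1 subunit, which confers little of that etomidate sensitivity. Its probe set ranged from 25.6 over a median of 195 to 213 in SNc, against 22.8 over 98.6 to 177 in VTA. The SNc arrays lay in 2 groups, with SNc 1, 2, 3, 4 and 6 between 194 and 213, above every VTA array, and SNc 5, SNc 7 and SNc 8 at 100.5, 80.9 and 25.6. In VTA the low arrays were VTA 5 at 22.8 and VTA 1 at 37.1. The log2 difference of 0.47 (SE 0.40, 95% interval -0.36 to 1.30, limma adjusted p = 0.608) was about the size of its standard error. The spread of Gabrb1 within a region was 0.89 on the log2(signal + 16) scale, wider than that of 99.2% of tested probe sets, whose median was 0.36. SNc 5, SNc 7 and SNc 8 were also the SNc arrays nearest to the VTA arrays on the first principal component of all tested probe sets, which held 16.9% of the variance. The control probe sets had their highest SNc medians on the same arrays, at 19.2, 16.5 and 18.2, against 4.34 to 8.31 on the other 5 SNc arrays. The astrocyte markers summed to 5095, 6556 and 4269 on SNc 5, SNc 7 and SNc 8, against 4712 to 6147 on the other 5. The oligodendrocyte markers summed to 7046, 9401 and 8203 there, with the 2 lowest sums of all arrays on SNc 5 and SNc 8, against 9363 to 11796 on the other 5. The part of these differences in the Gabrb1 values was not tested.

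Between captures, Gabrb1 and Gabrb2, the latter read by its brighter probe set rc_AA891476_at, ran in opposite directions. With each region's mean subtracted, their log2(signal + 16) values had a Pearson r of -0.67 and a Spearman rho of -0.74 over 15 arrays, the lowest r among the 21 pairs of subunit genes. The r was -0.53 in SNc (8 arrays) and -0.80 in VTA (7 arrays). Without the 2 arrays farthest from the median in Gabrb1 it was -0.49 over 13 arrays, and in SNc alone -0.27 over 6. It was -0.69 after quantile normalization and -0.61 with each array centred on its median. With that centring the SNc arrays alone had an r of -0.42 and a rho of -0.26, and an r of -0.08 without the 2 farthest arrays, so in SNc the relation rests on those arrays. In VTA the r was -0.80 with that centring, and -0.58 over 5 arrays. The pair was picked as the lowest of 21, so these values are a description, and all genes of an array share its RNA and scaling. None of them covers the dimmer Gabrb2 probe set, X15467cds_at, which lay near the controls. On SNc 8 and VTA 5, lowest in Gabrb1 in their regions, it was 14.2 and 8.74, not above its region medians of 17.1 and 8.74. On SNc 6, highest in Gabrb1, it was 16.4.

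**Figure D3:**
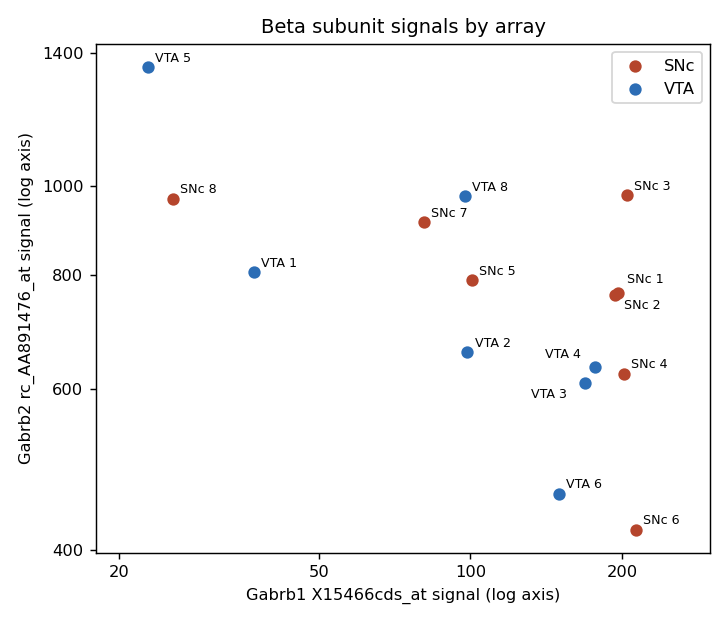
Gabrb2 signal by its brighter probe set against Gabrb1 signal on each of 8 SNc and 7 VTA arrays, both on log axes. Arrays low in Gabrb1, SNc 8 at 25.6 and VTA 5 at 22.8, were high in Gabrb2, at 970 and 1350, and SNc 6, highest in Gabrb1 at 213, was lowest in Gabrb2 at 421.

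Among the alpha subunits, Gabra4 had the largest difference between the regions. It encodes the alpha4 subunit, found with delta in receptors outside synapses and insensitive to diazepam. Its probe set L08493cds_s_at ranged from 6.62 over a median of 29.4 to 74.9 in SNc, against 36.6 over 56.9 to 96.7 in VTA. Of the 8 SNc arrays, 5 were below the lowest VTA array, and SNc 4 and SNc 8 were lowest of all, at 6.62 and 9.38. SNc 5, SNc 7 and SNc 6, at 74.9, 63.4 and 41.9, lay in the VTA range. The mean signal was 35.2 ± 24.0 in SNc and 61.0 ± 21.7 in VTA (SD, n = 8 and 7), both under the highest control. This probe set was above the control median on 14 arrays.

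The Gabra4 difference was -0.69 on the log2(signal + 16) scale (SE 0.27, 95% interval -1.25 to -0.13), with an unadjusted exact permutation p of 0.0401, and it missed the threshold after adjustment over all tested probe sets (limma adjusted p = 0.216). The second Gabra4 probe set, S55933_i_at, ranged from 0.305 over 3.30 to 15.9 in SNc, against 3.26 over 13.9 to 16.5 in VTA. It lay in the same direction, at -0.33 (SE 0.18, limma adjusted p = 0.456 in the fit of all probe sets), at signals within those of the controls. The oligodendrocyte marker sums were also lower in SNc than in VTA, at medians of 9414 and 11358, and the GABA neuron sums higher, at 1475 and 714. Among the GABA neuron markers Gad1 averaged 753.5 in SNc and 279 in VTA, and Slc32a1 403 in SNc and 374 in VTA. The part of the marker sums in the Gabra4 values was not tested.

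Gabra2 encodes the alpha2 subunit, which takes part in the calming effect of benzodiazepines. It ranged from 14.3 over a median of 28.6 to 56.5 in SNc, against 16.8 over 37.5 to 60.5 in VTA. The ranges nearly coincided, and the log2 difference of -0.22 (SE 0.20, 95% interval -0.65 to 0.20, limma adjusted p = 0.63) was close to its standard error.

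Gabra3 encodes the alpha3 subunit, which is known from monoamine neurons. Its brighter probe set, L08492cds_s_at, ranged from 10.6 over 12.9 to 51.0 in SNc, against 12.4 over 30.0 to 46.4 in VTA. Of the SNc arrays 6 lay at 10.6 to 16, while SNc 8 and SNc 1 reached 51.0 and 38.7. The log2 difference was -0.33 (SE 0.23, limma adjusted p = 0.582 in the fit of all probe sets), and the dimmer probe set X51991_at gave 0.02 (SE 0.15).

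Gabra5 encodes the alpha5 subunit, best known from the hippocampus. Its probe set X51992_at ranged from 3.02 over 16.4 to 47.7 in SNc, against 13.4 over 23.9 to 45.9 in VTA, and SNc 8 and SNc 1 were again the highest SNc arrays. The log2 difference was -0.19 (SE 0.24, limma adjusted p = 0.801 in the fit of all probe sets). The other probe set, L08494cds_s_at, ranged from 0.571 to 6.86 in SNc, against 0.695 to 10.3 in VTA, and was above the control median on 0 of 15 arrays.

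Gabrg1 encodes the gamma1 subunit, which forms receptors less sensitive to benzodiazepines and is made by some neurons and glia. It ranged from 24.1 over a median of 38.4 to 90.4 in SNc, against 8.51 over 30.7 to 56.2 in VTA. SNc 8 was the 1 array above the VTA range. The log2 difference was 0.30 (SE 0.24, 95% interval -0.20 to 0.80, limma adjusted p = 0.587). On SNc 8 the astrocyte markers had their lowest sum of all arrays, at 4269. Whether glia in the captures bear on the Gabrg1 values was not tested.

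Gabrb2 gave most of the summed subunit signal in both regions. Each gene's brightest probe set was divided by the sum of the 7 on its array. Probe sets differ in how well they bind and in where they lie on the transcript, so these are shares of signal, not of transcripts or of receptors. Gabrb2 made up 70.8% ± 7.73 of the summed signal in SNc and 70.8% ± 11.2 in VTA (SD, n = 8 and 7). Gabrb1 followed with 14.9% ± 8.39 in SNc and 10.97% ± 7.04 in VTA. Its share ranged from 2.07% to 27.6% over SNc arrays and from 1.43% to 18.3% over VTA arrays.

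The alpha genes and Gabrg1 each had small shares. Gabra4 had 3.33% ± 2.32 in SNc and 5.82% ± 2.52 in VTA, Gabra2 3.02% ± 1.13 in SNc and 4.04% ± 1.62 in VTA, and Gabrg1 4.06% ± 1.94 in SNc and 3.07% ± 1.78 in VTA. Gabra3 and Gabra5 had 1.87% and 1.99% in SNc and 2.71% and 2.57% in VTA. The difference in mean share between the regions was largest for Gabrb1, at 3.96 percentage points, which is smaller than its SD in either region. For Gabra4 it was -2.50 points, about 1 SD. The 4 alpha genes together had a signal of 49.8 to 154.9 in SNc, with a median of 113, against 123 to 196 in VTA, with a median of 156.

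The makeup depended on which Gabrb2 probe set was used. With the coding sequence probe set in its place, a comparison added after the values were seen, Gabrb2 had 5.205% of the sum in SNc and 3.184% in VTA, and Gabrb1 had 46.1% in SNc and 33.1% in VTA. Gabra4 then had 11.1% in SNc and 20.8% in VTA.

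**Figure D4:**
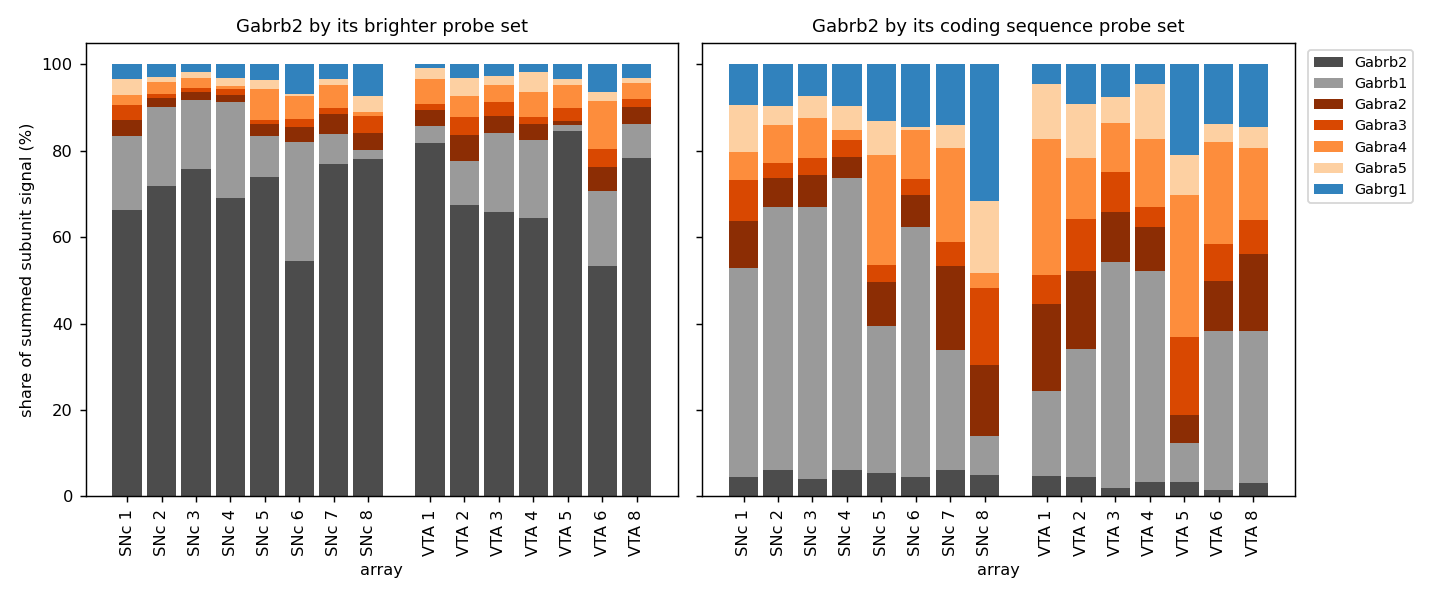
Share of each subunit gene in the summed signal of the 7 genes (percent) on every array, SNc arrays left and VTA arrays right, with Gabrb2 read by its brighter probe set (left panel) or by its coding sequence probe set (right panel). Gabrb2 averaged 70.8% in both regions in the left panel, and 5.205% in SNc and 3.184% in VTA in the right one. The share of Gabrb1 in the left panel ran from 2.07% to 27.6% over SNc arrays.

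Of the 7 genes, 4 lie close together on rat chromosome 14 in the RefSeq annotation of GRCr8, in the order Gabrb1, Gabra4, Gabra2 and Gabrg1, with Cox7b2 as the only annotated protein-coding gene between Gabra4 and Gabra2. Their signals were compared between captures. With region means subtracted, the 6 pairs had a Pearson r from -0.37, for Gabrb1 and Gabrg1, to 0.22, for Gabra2 and Gabrg1, with a median of 0.01 over 15 arrays. Over all 21 pairs of the 7 genes the r ran from -0.67 to 0.735, with the highest for Gabra3 and Gabrg1, both high on SNc 8 and VTA 5. Gabra3 lay below the filter, near the signal of the controls.

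The genes whose signals were most like those of the brightest alpha, beta and gamma members were found by Pearson r over 15 arrays with region means subtracted, among 3220 other genes. For Gabra4 these were Srpk2, a kinase of splicing factors (0.76), Amd1, an enzyme of polyamine synthesis (0.75), and Glp1r, the receptor of glucagon-like peptide (0.75). For Gabrb2 they were Txnrd1, a thioredoxin reductase, and Celsr3, a cadherin of axon tracts (both 0.81), and Rictor, a subunit of the second mTOR complex (0.76). For Gabrg1 they were Pcsk5, a proprotein convertase (0.80), Mras, a Ras-like GTPase (0.78), and Rpl35a, a ribosomal protein (0.76). As the highest of 3220 values of r these describe the arrays and carry no test. None of the 9 genes differed between the regions in limma (adjusted p from 0.443 to 0.901).

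The other genes of inhibitory transmission were compared by 6 lists, with 1 probe set a gene. Over all 3221 genes tested, 32 were higher in SNc and 38 higher in VTA, and the median difference was -0.04. Of 12 further GABA-A subunits, 8 were on the array and 4 tested, of which 0 passed, with a median of -0.06. Those with the smallest p were Gabre, the epsilon subunit, at 23.1 ± 16.9 in SNc and 37.5 ± 8.05 in VTA (log2 difference -0.56, limma adjusted p = 0.253), and Gabrr1, the rho1 subunit known from the retina, at 67.3 ± 21.1 in SNc and 44.8 ± 13.1 in VTA (0.43, adjusted p = 0.265).

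GABA-B receptors act through G proteins, and glycine receptors are chloride channels of the same family as GABA-A receptors. Gabbr2, a GABA-B subunit, averaged 570 ± 135 in SNc and 608 ± 104 in VTA, a log2 difference of -0.11 (SE 0.16, limma adjusted p = 0.793). Of 3 GABA-B and glycine receptor genes tested 0 passed, and all 3 were below 0. Glra2, the alpha2 subunit of the glycine receptor, ranged from 62.5 over a median of 95.7 to 166 in SNc, against 89.2 over 174 to 345 in VTA (log2 difference -0.79, SE 0.25, limma adjusted p = 0.114). The ranges of the regions overlapped.

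Of 8 genes of the inhibitory synapse and receptor trafficking 0 passed, with a median of 0.09. The smallest p were those of Dnm1, the dynamin of endocytosis (0.33, SE 0.17), and Nrxn3, a presynaptic adhesion protein (0.39, SE 0.21). Of 7 genes of chloride transport, which sets the driving force of the receptor, 0 passed, with a median of -0.07. Slc4a3, a chloride and bicarbonate exchanger, was 549 ± 152 in SNc and 358 ± 67.4 in VTA (0.58, SE 0.17, limma adjusted p = 0.0906), and Slc12a7, a potassium chloride cotransporter, 98.9 ± 60.3 in SNc and 146 ± 28.1 in VTA (-0.66, SE 0.27, adjusted p = 0.249). Of 2 receptor modulators tested 0 passed: Dbi, whose peptide binds at the benzodiazepine site, differed by 0.04 (SE 0.15), and Tspo, a mitochondrial protein linked to neurosteroid synthesis, by 0.43 (SE 0.28).

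The 1 call in these lists was Gad1. Of 6 genes of GABA synthesis, release, uptake and breakdown, 1 was higher in SNc and 0 higher in VTA, with a median of 0.10. Gad1, a GABA-synthesising enzyme, ranged from 469 over a median of 823 to 998 in SNc, against 163 over 198 to 440 in VTA (log2 difference 1.45, SE 0.23, limma adjusted p = 0.00154). Every SNc array was above every VTA array. Gad1 is also a GABA neuron marker, and of 4 such markers tested 2 were higher in SNc, the other being Pvalb, a calcium-binding protein, at 141 ± 47.3 in SNc and 53.7 ± 38.0 in VTA (log2 difference 1.34, limma adjusted p = 0.0282). Gad2 and Slc32a1, tested as well, did not pass (log2 difference 0.23, limma adjusted p = 0.723, and 0.07, adjusted p = 0.901). Whether GABA neurons in the captures bear on the subunit values was not tested.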

How the data were processed

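The deposited table holds the authors' intensity, on a linear scale, for each of 8799 probe sets on 15 arrays. The sources used here do not give its software, background correction or any RNA amplification. By its values every array had a 2% trimmed mean of about 150.0, so the deposited intensities had been scaled. Of 8740 probe sets other than 59 controls, 7006 had 1 gene symbol in the platform annotation, 1426 had no symbol and 308 had more than 1. The RefSeq table of assembly GRCr8 changed 0 symbols. The number of arrays limits the precision.

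Groups and array numbers came from the labels. Differences were taken on log2(intensity + 16), which makes those of dim probe sets smaller. Probe sets whose mean was in the lowest 40% were dropped. The remaining 5244 were compared by two-sided moderated tests in limma 3.58.1 (R 4.3.3), p-values were adjusted over all of them by the Benjamini-Hochberg method, and the threshold was 0.05. Probe sets below the filter were read from the same fit over all 8740. Exact permutation tests, two-sided, used all 6435 assignments of the arrays, and the smallest p they can give is 0.000311. The limma procedure was tested on simulated data. Where 1 probe set stood for a gene, it was the one with the highest mean.

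Every subunit probe set was named, then from each list the genes past the threshold or else the 2 with the smallest p, and the 3 genes with the highest r to the brightest alpha, beta and gamma gene. The members and lists were chosen with earlier results of these data known. The alternatives were other scalings (quantile, median), offsets (1, 64) and filters (none, 60%), the array number as a block, a trended and robust variance, the exact permutation test, averages over probe sets of 1 gene, and each array left out in turn. The control probe sets, Pvalb, the other Gabrb2 probe set and the fit without VTA 5 and VTA 8 were chosen after seeing the data.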

Additional observations from a re-analysis of the deposited data

Results flagged for a closer look

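In 3 of 22 groups of arrays (11 subunit probe sets in 2 regions), 1 array stood far from the others of its region on the log2(signal + 16) scale, where chance gives about 1 in 20, or 1.1. Gabra3 X51991_at was 23.3 on VTA 1, against 4.27 to 8.60 on the other VTA arrays. Gabra5 L08494cds_s_at was 6.86 on SNc 5, against 0.571 to 1.45 on the other SNc arrays. The same probe set was 10.3 on VTA 2, against 0.695 to 2.69 on the other VTA arrays. Both probe sets lay below the filter, and none of these values reached the highest control signal of 115.5.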

How the results depend on the processing

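The count of subunit probe sets past the threshold was 0 under every alternative except without a filter, where it was 1, by Gabrb2 X15467cds_at. That call held in 6 of 24 alternatives and was lost in 18. It held with median centring at 0.47 (adjusted p = 0.0194), quantile normalization at 0.45 (0.022), a random replicate block at 0.37 (0.0297) and an offset of 1 at 0.82 (0.0466), and without SNc 8 or VTA 2. It was lost at 0.14 with an offset of 64 (adjusted p = 0.0507), at 0.37 with the array number as a fixed replicate block (adjusted p = 0.0885), and without each of the other 13 arrays. On leaving out single arrays it ran from 0.34 to 0.42. The brighter Gabrb2 probe set changed sign with the replicate block, at -0.017, and on leaving out single arrays it ran from -0.090 to 0.163. Gabra3 X51991_at changed sign with the block, at -0.056, and without VTA 5 and VTA 8, at -0.021, and ran from -0.056 to 0.141 on leaving out single arrays. Gabra5 L08494cds_s_at was 0.0057 with median centring. None of these values passed, and the cause was not tested. Gabra4 L08493cds_s_at was below 0 in 26 of 26 alternatives, from -1.05 to -0.35, with adjusted p from 0.0664 with the replicate block to 0.345, and Gabrb1 above 0 in 26 of 26, from 0.20 to 0.73. The Gabrb2 share in SNc was 58.4% with the mean signal of all its probe sets and 5.205% with its coding sequence probe set, which gave 3.184% in VTA. Over all tested probe sets 104 were called, 44 higher in SNc and 60 in VTA. With median centring these were 67 and 37, with quantile normalization 43 and 44. The total was 60 with an offset of 1, 153 with a random replicate block, and 56 to 115 on leaving out single arrays, lowest without SNc 3 and also under 70 without SNc 2, SNc 4 or any of VTA 1, 2, 3, 5 and 6. Same-numbered arrays deviated from their region means with a correlation of 0.0439 to 0.254, above 0 in all 7 pairs and over 0.1 in 5. Of the 7 VTA arrays, 3 correlated best with their own number. The main fit did not take the numbers as pairs, and these values do not settle that choice. Whether a shared number means a shared animal was not tested. Gabra4 L08493cds_s_at had a limma adjusted p of 0.216 in the main fit and 0.0664 with the fixed block, and passed in neither. The choice changed the call of Gabrb2 X15467cds_at. Its limma adjusted p was 0.0475 in the main fit of all probe sets, 0.0297 with the random block and 0.0885 with the fixed block. In the fixed block, SNc 7 has no partner and adds nothing to the difference.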

Other observations

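Because Gabrb1 was so uneven between captures, the genes most like it were also found, after its values had been seen. Among 3220 genes, with region means subtracted over 15 arrays, these were Bcat1, an enzyme of branched-chain amino acid metabolism, and Chrna6, the alpha6 nicotinic receptor subunit known from midbrain dopamine neurons (both r = 0.83), and Ppm1a, a protein phosphatase (r = 0.82). Chrna6 averaged 155 ± 39.3 in SNc and 132 ± 55.1 in VTA, a log2 difference of 0.28 (SE 0.24, limma adjusted p = 0.608). For Bcat1 the averages were 129.5 ± 35.5 in SNc and 102 ± 28.4 in VTA, a log2 difference of 0.29 (SE 0.18, adjusted p = 0.486). These are the highest of 3220 values and carry no test.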
